A study of Bos grunniens with 18 samples.

Results

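The whole-blood transcriptome of yaks in estrus (the Y-E group) was compared with that in anestrus (the Y-A group). These are 12 of the 18 libraries of the series, 6 in each group, chosen by the stage in their labels and paired by the number in their titles. The animals were adult female yaks (*Bos grunniens*) aged 4 to 8 years in their second year of calving, and the same 6 cows were sampled again in pregnancy (the Y-P group), whose 6 libraries were part of the same model. Estrus was brought about by a progesterone pessary, cloprostenol (an analogue of prostaglandin F2α) and GnRH, followed by timed artificial insemination. The study does not say when the anestrus blood was drawn relative to that programme, so the stage, the hormone treatment and the time of sampling cannot be told apart here. Blood was collected with EDTA and mixed with TRIzol LS, without separation of red and white cells.

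Whole blood RNA comes from neutrophils, monocytes, lymphocytes and platelets, and from reticulocytes, the young red cells that still hold hemoglobin and heme synthesis messengers after losing their nucleus. Estrus is the short phase around ovulation in which estradiol is high and progesterone is low, whereas ovarian cycles are at rest in anestrus. Both steroids, and the glucocorticoids, act on blood leukocytes, neutrophils in particular. In bulk blood, fewer cells of a type and less RNA per cell cannot be told apart.

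Each library held 30247267 to 46404156 counts, so that 3 counts, the upper limit that a count of 0 allows, corresponded to 0.0646 to 0.0992 CPM (counts scaled to the library total). The CPM levels of genes given here also carry TMM factors, which these limits do not. These limits cover counting error only. Hemoglobin complex genes made up between 3.10% and 16.7% of a Y-A library, with a median of 5.64%. In Y-E they made up 0.0899% to 0.713% of replicates 1 to 5 and 8.36% of replicate 6. The share was lower in Y-E than in Y-A in every animal, also in number 6, whose Y-A library had the highest share of all. Because Y-E replicate 6 lay within the range of Y-A, the calls are given over all 18 libraries and over the 17 without it, and list medians over both where they differ by more than 0.05. Values are over 18 libraries where the passage does not name 17. Because that library was set aside for its hemoglobin level, the larger red cell changes over 17 libraries follow from a choice made on the same outcome and are a description. The defining markers of leukocytes were present in all 12 libraries. The summed level of 25 neutrophil markers, 24 of them tested, was 8924 to 13758 CPM in Y-A and 11014 to 18663 CPM in Y-E. It was higher in Y-E than in Y-A in 6 of 6 animals. The summed level of 18 T cell markers was 2385 to 2602 CPM in Y-A and 2323 to 2775 CPM in Y-E, with no common direction.

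**Figure D1:**
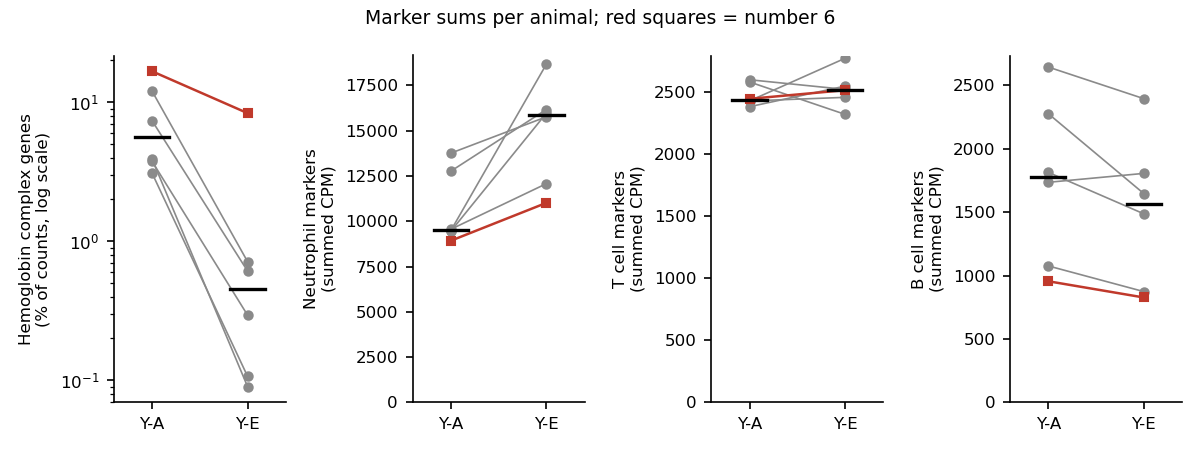
Share of counts from hemoglobin complex genes (percent, log scale) and summed CPM of neutrophil, T cell and B cell markers in Y-A and Y-E, with a line for each animal, red squares for number 6 and black bars for the group medians. The hemoglobin share drops in every line but ends at 8.36% in number 6, the neutrophil sum climbs in every line, and the T cell sum stays between 2323 and 2775 CPM.

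Few genes separated the stages. edgeR's quasi-likelihood test with the animal as a block covered 14508 genes over 18 libraries. A gene was called a DEG at a Benjamini-Hochberg adjusted p under 0.05 and |log2FC| of at least 1, and 11 genes (0.0758%) were called, 2 up-regulated and 9 down-regulated in estrus. On the adjusted p alone, 14 genes (0.0965%) passed, 4 higher and 10 lower. Over 17 libraries, 34 of 14653 genes (0.232%) were called, 7 up-regulated and 27 down-regulated, and they included all 11. On the adjusted p alone 54 genes (0.369%) passed, 26 higher and 28 lower. This balance depended on the tool: DESeq2 gave 115 higher and 43 lower over 18 libraries and 216 and 56 over 17. Of the 34 DEGs, 12 were red cell or hemoglobin genes, all lower, against 4 of the 11. Over all tested genes the log2 fold change had a median of −0.01 in both fits. The middle 90% of the genes lay between −0.49 and 0.70 over 18 libraries, and 598 genes (4.12%) had a fold change beyond the threshold whatever their p.

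**Figure D2:**
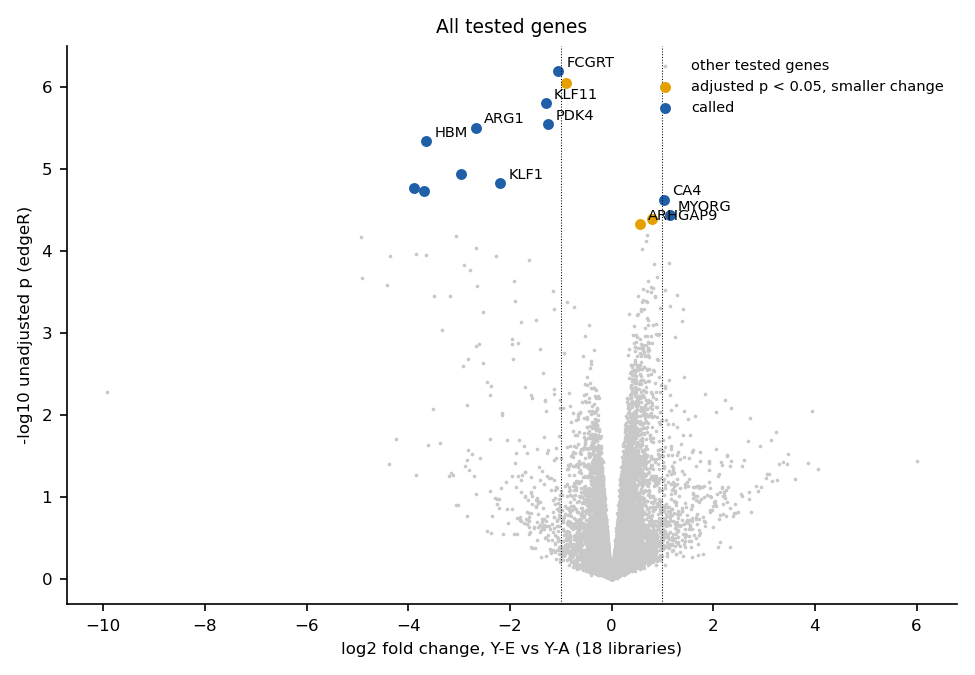
Fold change (log2, Y-E vs Y-A) against the unadjusted p (−log10) of the 14508 genes tested over 18 libraries, with called genes in blue, genes past the adjusted p alone in orange and dotted lines at a log2 fold change of −1 and 1. FCGRT, KLF11 and PDK4 have the smallest p-values among the called genes and changes near −1, while the hemoglobin genes lie farther to the left.

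Unadjusted p-values leaned towards higher levels in estrus. Over 18 libraries, 833 genes (5.74%) were higher and 394 genes (2.72%) lower at an unadjusted p under 0.05. Over 17 libraries the counts were 913 (6.23%) and 425 (2.9%). Counted by animal, however, 492 genes (3.39%) were higher and 535 genes (3.69%) lower in all 6 animals. The 2 groups of libraries did not overlap at all in 19 genes (0.131%) that were higher in Y-E and 25 genes (0.172%) that were lower.

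Genes of fatty acid use moved in both directions in estrus. Those past the adjusted p over 18 libraries, PDK4 and ENSBGRG00000008216, were lower. PDK4 encodes a pyruvate dehydrogenase kinase, which turns off the entry of pyruvate into the citric acid cycle and so favours fatty acids as fuel. It lies on chromosome 4 at 116835661 to 116847565 (plus strand; coordinates here come from the deposited annotation, and the methods name the *Bos grunniens* genome, version v101). Its level was 47.4 to 75.3 CPM in Y-A (median 57.9) and 17.4 to 31.7 CPM in Y-E (median 25.1). All 6 Y-E libraries, replicate 6 included, lay below all 6 Y-A libraries. The log2 fold change was −1.26 ± 0.17 (SE) with an adjusted p of 0.00919 over 18 libraries, and −1.27 with 0.0121 over 17. By animal the difference ran from −1.51 to −0.86. Without Y-E replicate 3 the adjusted p was 0.0557.

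The gene ENSBGRG00000008216 (chromosome 29, 5688859 to 5698480, plus strand) has no symbol in the table, but its annotation gives the enzyme class of carnitine O-palmitoyltransferase, the enzyme that loads long-chain fatty acids onto carnitine for import into mitochondria. It measured 32.5 to 46.1 CPM in Y-A (median 36.1) and 16.6 to 22.8 CPM in Y-E (median 19.6). The groups did not overlap, and all 6 animals had the lower value in estrus. With a log2 fold change of −0.90 ± 0.11 (SE) it passed the adjusted p (0.00651 over 18 libraries and 0.00967 over 17) but not the fold threshold. CD36, a receptor that takes up long-chain fatty acids and oxidised lipoproteins, was rare: 26 to 111 counts in each Y-A library, 0 counts in Y-E replicates 1, 2, 3 and 6, 6 counts in replicate 4 and 9 in replicate 5. Every Y-E library was below every Y-A library. The adjusted p was 0.0588 over 18 libraries and 0.0496 over 17, where it was called with a fitted log2 fold change of −4.56, a value that depends on the prior count.

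Around these genes, a list of 49 genes of fatty acid oxidation and fuel choice had members in both directions. Of 37 tested members 1 was called over 18 libraries (PDK4) and 2 over 17 (PDK4 and CD36), and the median log2 fold change was −0.07 and −0.09. At an unadjusted p under 0.05, 4 members were higher and 5 lower, against 5.74% and 2.72% of all tested genes. In all 6 animals 5 members were lower, against 3.69% of all tested genes. Named after their values were seen, the thiolase ACAA2, which cuts acetyl-CoA from the shortened fatty acid, measured 42.3 to 66.0 CPM in Y-A and 31.8 to 41.8 CPM in Y-E. Its groups did not overlap, with a log2 fold change of −0.42 (adjusted p = 0.251). HADHB, a subunit of the trifunctional protein of the same pathway, had −0.30 (adjusted p = 0.460). In the other direction, UCP2, a carrier of the inner mitochondrial membrane that is abundant in leukocytes, measured 1217 to 2143 CPM in Y-A and 1828 to 4164 CPM in Y-E, higher in 6 of 6 animals, with a log2 fold change of 0.86 (adjusted p = 0.110). PPARD, a nuclear receptor for fatty acids, had 0.30 (adjusted p = 0.465). The thiolase ACAA1 had 0.45 (adjusted p = 0.465), and PDK3, a kinase of the PDK4 family, had 0.46 (adjusted p = 0.524). PPARD, ACAA1 and PDK3 were also chosen afterwards. Of 56 tested genes of the KEGG PPAR signaling pathway, 5 were higher and 4 lower at an unadjusted p under 0.05, with a median of 0.06.

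FCGRT had the smallest p-value of all 14508 genes. It encodes the heavy chain of the neonatal Fc receptor, which recycles IgG and albumin from endosomes, and lies on chromosome 20 at 59131217 to 59138481 (minus strand). Its level was 114 to 162 CPM in Y-A (median 144) and 57.8 to 76.1 CPM in Y-E (median 67.2). Every Y-E library was below every Y-A library, and the difference by animal lay between −1.48 and −0.84. The log2 fold change was −1.05 ± 0.13 (SE) with an adjusted p of 0.00651 over 18 libraries and −1.03 with 0.00733 over 17. It overlaps RCN3 on the same strand, where reads could be shared, and RCN3 itself stood at 0.41 on the log2 scale (adjusted p = 0.509). Without Y-A or Y-E replicate 2 the fold change was −0.99 or −0.97, inside the fold threshold, and the adjusted p stayed at or under 0.0430 whichever library was left out. Among 10 tested Fc receptor genes FCGRT was the 1 that was called, and the median of the list was −0.01.

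KLF11, a Krüppel-like transcription factor that acts downstream of TGF-β, lies on chromosome 9 at 113729036 to 113739430 (minus strand). It measured 33.4 to 74.6 CPM in Y-A (median 41.9) and 13.1 to 30.1 CPM in Y-E (median 17.1). The highest value of each group came from the same animal, number 4, and the groups did not overlap. The log2 fold change was −1.29 ± 0.17 (SE) with an adjusted p of 0.00762 over 18 libraries and −1.21 with 0.0102 over 17. The largest difference by animal, −1.74, was that of number 6.

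**Figure D3:**
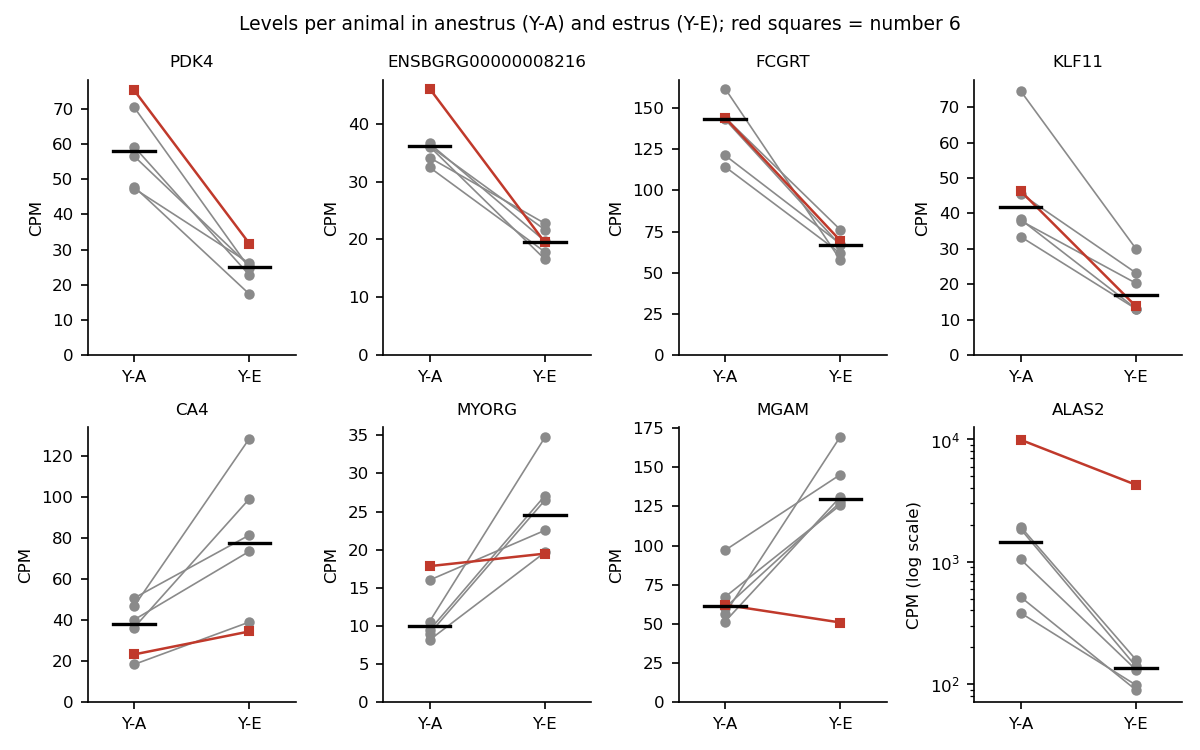
Levels (CPM, log scale for ALAS2) of 8 genes in Y-A and Y-E, with a line for each animal, red squares for number 6 and black bars for the group medians. PDK4, ENSBGRG00000008216, FCGRT and KLF11 drop in all 6 animals with no overlap of the groups, while CA4, MYORG and MGAM are higher in estrus in animals 1 to 5 and differ less, or for MGAM the other way, in number 6.

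Red cell genes had large changes whose size depended on Y-E replicate 6. Over 18 libraries HBM, a hemoglobin mu chain, and KLF1, the master transcription factor of red cell genes, were called with log2 fold changes of −3.65 (adjusted p = 0.0112) and −2.19 (adjusted p = 0.0271). The hemoglobin complex genes ENSBGRG00000011277 and ENSBGRG00000014632 had −3.89 and −3.68 (adjusted p = 0.0275 for both). Over 17 libraries ALAS2, the first enzyme of heme synthesis in red cells, joined them: 382 to 9946 CPM in Y-A and 89.6 to 4261 CPM in Y-E, with a log2 fold change of −3.26 (adjusted p = 0.00701), against −2.66 (adjusted p = 0.0685) over 18. In Y-E replicates 1 to 5 ALAS2 was at most 159 CPM, and the highest value of each group was that of number 6. The heme synthesis enzymes UROD and ALAD, with 17-library values of −1.34 and −2.19, and HEMGN, RHAG, KEL and DMTN, genes of red cell development and membrane, were called in the same fit. Of 32 tested members of the red cell list, 2 were called over 18 libraries and 10 over 17, all lower, with medians of −1.05 and −1.23. The added calls are not independent of the choice to leave out a library of high hemoglobin. Not every member fell. At an unadjusted p under 0.05 over 18 libraries, 2 members were higher and 20 lower, against 5.74% and 2.72% of all tested genes. The 2 higher were SLC25A37 (0.39; adjusted p = 0.379) and SLC2A1 (0.26; adjusted p = 0.587), each higher in 6 of 6 animals.

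ARG1, the arginase that splits arginine into urea and ornithine, is no member of the red cell list but moved with it. It measured 29.1 to 486 CPM in Y-A (median 99.2) and 3.34 to 208 CPM in Y-E (median 12.4), and the highest value of each group again came from number 6. The log2 fold change was −2.67 ± 0.37 (SE; adjusted p = 0.00919) over 18 libraries and −3.05 (adjusted p = 0.00339) over 17. Without Y-A or Y-E replicate 3 it was not called (adjusted p up to 0.0557). It overlaps MED23 on the other strand, whose log2 fold change was −0.08. PGAP6, MARCHF2 and SLC25A39, genes that the study names, had −2.27, −1.63 and −1.97 over 18 libraries with adjusted p-values of 0.0701, 0.0763 and 0.191. SLC25A39 is itself a member of the red cell list, unlike PGAP6 and MARCHF2. Over 17 libraries PGAP6 and MARCHF2 were called (−2.70 and −1.87), and SLC25A39 was not (adjusted p = 0.0590). The study's discussion describes MARCHF2 as increased in estrus, without naming the comparison, which is the opposite direction to the estimates here. ENSBGRG00000016947, an X-linked gene annotated to transcription, was called in both fits (−2.96 and −3.26). Whether these genes come from the red cells was not tested.

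The up-regulated DEGs were a different set. CA4, a membrane-bound carbonic anhydrase that interconverts carbon dioxide and bicarbonate, measured 18.5 to 50.9 CPM in Y-A (median 38.4) and 34.6 to 129 CPM in Y-E (median 77.6). The groups overlapped through animals 4 and 6, which were low at both stages, but all 6 animals were higher in estrus. The log2 fold change was 1.03 ± 0.17 (SE; adjusted p = 0.0315) over 18 libraries and 1.13 (adjusted p = 0.0132) over 17. MYORG, a glycosidase of the endoplasmic reticulum, measured 8.19 to 17.9 CPM in Y-A and 19.5 to 34.7 CPM in Y-E without overlap of the groups. Its log2 fold change was 1.14 ± 0.20 (SE; adjusted p = 0.0442) and 1.31 (adjusted p = 0.00701). In number 6 the difference was 0.13, the smallest of the 6. Leaving out each library in turn, CA4 was called in 3 of 12 fits and MYORG in 4.

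Over 17 libraries 5 further genes were up-regulated. MGAM, an alpha-glucosidase carried by neutrophils, measured 51.6 to 97.0 CPM in Y-A and 126 to 170 CPM in Y-E replicates 1 to 5, without overlap, but 51.0 CPM in Y-E replicate 6. Its log2 fold change was 1.13 (adjusted p = 0.0163), and 0.92 (adjusted p = 0.184) with replicate 6. MMP9, the gelatinase of neutrophil granules, measured 36.2 to 108 CPM in Y-A, 145 to 305 CPM in Y-E replicates 1 to 5 and 51.3 CPM in replicate 6, with 1.61 (adjusted p = 0.0462) and 1.38 (adjusted p = 0.150). GLP1R, the receptor of glucagon-like peptide 1, was low, at 1.71 to 4.12 CPM in Y-A and 4.48 to 9.48 CPM in Y-E replicates 1 to 5, with 2.93 CPM in replicate 6. It had 1.25 (adjusted p = 0.0416) and 1.13 (adjusted p = 0.0775). NECTIN2, an adhesion molecule of the immunoglobulin superfamily, and SERINC2, a membrane protein of serine incorporation, had 1.46 and 1.16 over 17 libraries (adjusted p = 0.0462 and 0.0496). Of 26 genes that were higher on the adjusted p alone over 17 libraries, 20 were also higher in animal 6. Over all tested genes the median difference in animal 6 was 0.01. That fit still held Y-A replicate 6, so the animal 6 difference is not independent of the selection, and the count is a description. Beside genes already named, the 26 included BCL6 (0.83; adjusted p = 0.0365), a transcriptional repressor, and TARM1 (0.60; adjusted p = 0.0251), a receptor of granulocytes, which differed by −0.06 in animal 6. Named after their values were seen, SPI1, which encodes PU.1, the regulator of myeloid genes, had 0.87 over 17 libraries (adjusted p = 0.0473), and UPP1, CD24 and ARHGAP9 had 0.95, 0.71 and 0.63 in the same fit (adjusted p = 0.0255, 0.0462 and 0.0119). ARHGAP9, a GTPase-activating protein of blood cells, also passed over 18 libraries (0.56; adjusted p = 0.0493).

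The neutrophil markers with an unadjusted p under 0.05 were all higher in estrus. Differences between this list and those of other leukocytes were not tested. Of 40 listed neutrophil genes 24 were tested. None passed the adjusted p over 18 libraries and 2 did over 17 (MGAM and MMP9). At an unadjusted p under 0.05, 11 of the 24 were higher and 0 lower, against 5.74% and 2.72% of all tested genes, 5 were higher in all 6 animals, and the median log2 fold change was 0.45 over 18 libraries and 0.48 over 17. The median by animal was 0.74 in number 2 and 0.76 in number 3, and between 0.10 and 0.25 in the others. CSF3R, the receptor for granulocyte colony-stimulating factor, measured 2237 to 3151 CPM in Y-A and 2594 to 5374 CPM in Y-E, with a log2 fold change of 0.58 (adjusted p = 0.202). MMP25 (0.96; adjusted p = 0.124) and S100A9 (0.76; adjusted p = 0.340) were picked after their values were seen. The list medians were 0.05 for 13 monocyte, 0.04 for 18 T cell, −0.14 for 15 cytotoxic and NK cell, −0.17 for 15 B cell, 0.32 for 8 eosinophil and basophil and −0.13 for 14 platelet genes. Of the 8 eosinophil and basophil genes 2 were higher and 0 lower at an unadjusted p under 0.05, and their median was above 0 in 5 of 6 animals. None of these 6 lists had a member past the adjusted p in either fit. MS4A1, which encodes CD20 of B cells, had −0.44 (adjusted p = 0.509), and CD3D, a chain of the T cell receptor complex, 0.07 (adjusted p = 0.941).

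**Figure D4:**
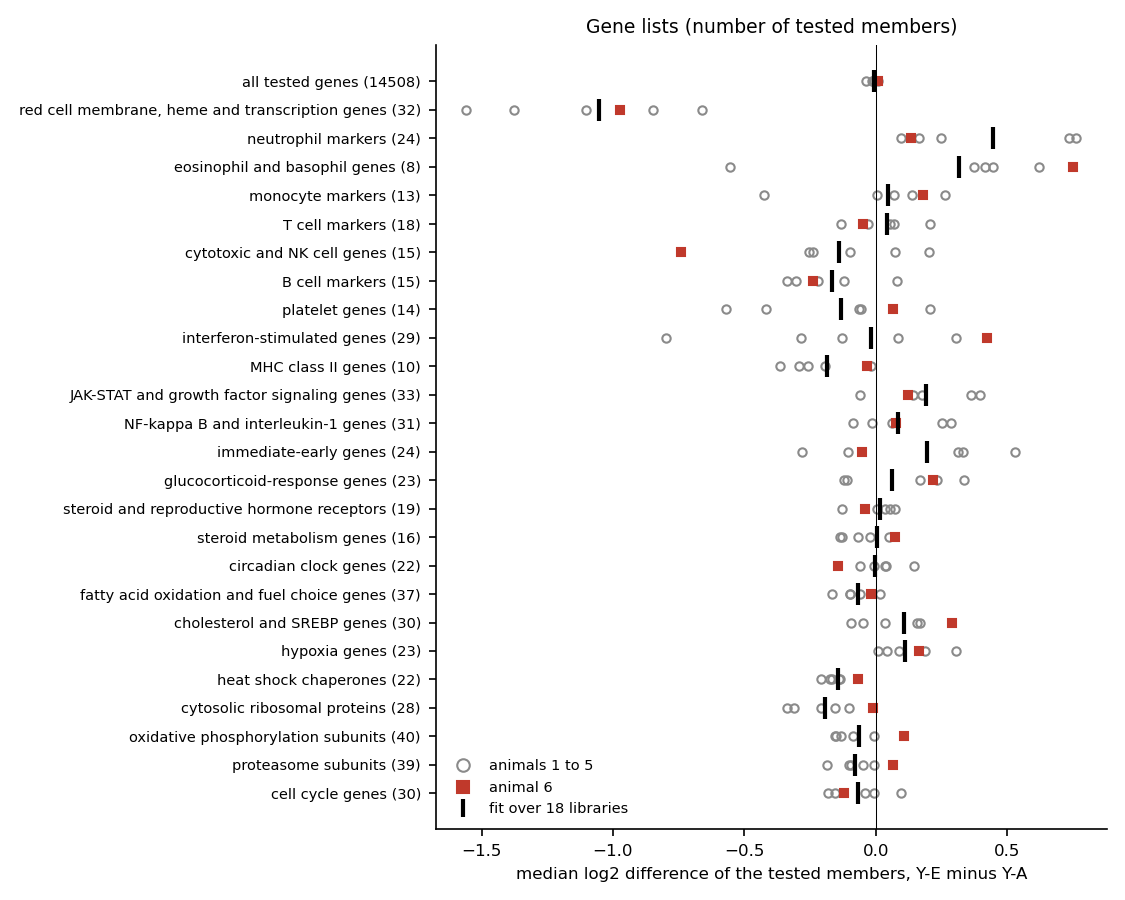
Median log2 difference between Y-E and Y-A of the tested members of each gene list, with circles for animals 1 to 5, red squares for number 6 and black ticks for the fit over 18 libraries. The red cell list lies at −0.66 or lower in every animal and the neutrophil list above 0 in every animal, while the median over all tested genes stays within 0.04 of 0.

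Lists of signaling genes had few or no members past the adjusted p. Their counts stand against 5.74% of all tested genes higher and 2.72% lower at an unadjusted p under 0.05. In all 6 animals 3.39% of all tested genes were higher. Of 33 tested JAK-STAT and growth factor genes, 9 were higher and 0 lower at an unadjusted p under 0.05, 8 were higher in all 6 animals, and the median was 0.19. BCL6 is the 1 member that passed the adjusted p, over 17 libraries, and SOCS3, a feedback inhibitor of this pathway picked after its value was seen, had 0.79 (adjusted p = 0.340). Of 24 immediate-early genes, 6 were higher and 2 lower, with a median of 0.19. FOS, which the study names, had 0.03 (adjusted p = 0.994) and its partner JUNB, picked after its value was seen, 0.72 (adjusted p = 0.377). Of 31 NF-kappa B and interleukin-1 genes, 3 were higher and 0 lower (median 0.09, and 0.15 over 17 libraries). Of 29 interferon-stimulated genes, 0 were higher and 0 lower (median −0.02, and −0.13 over 17 libraries), and the median by animal ran from −0.80 in number 1 to 0.42 in number 6. Of 15 complement genes, 3 were higher and 0 lower (median −0.07), and of 10 MHC class II genes, 0 were higher and 1 lower (median −0.19).

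Genes of steroid action moved little. The counts below stand against 5.74% of all tested genes higher and 2.72% lower. Of 19 tested receptors and coregulators of steroid and reproductive hormones, 1 was higher and 0 lower at an unadjusted p under 0.05, and the median was 0.02. Of 16 steroid metabolism genes, 1 was higher (median 0.01, and −0.05 over 17 libraries). Of 23 glucocorticoid-response genes, 1 was called lower, PDK4, and BCL6 passed the adjusted p over 17 libraries. At an unadjusted p under 0.05, 2 were higher and 1 lower, with a median of 0.06. FKBP5, a cochaperone of the glucocorticoid receptor that is induced by glucocorticoids, was picked after its values were seen and measured 105 to 450 CPM in Y-A and 81.5 to 211 CPM in Y-E, with −0.74 (adjusted p = 0.641). The log2 difference was −1.72 in animal 4 and −1.30 in animal 5, and within 0.25 of 0 in animals 1, 2 and 3. RARA, a retinoic acid receptor that the study names, had 0.48 (adjusted p = 0.321), MATR3 −0.10 (adjusted p = 0.920) and RGS1 −0.10 (adjusted p = 0.974). Of 22 circadian clock genes, 2 were higher, among them NFIL3 (0.61; adjusted p = 0.202).

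Cholesterol genes and genes of low oxygen had no call, and the 4 genes named here were chosen after their values were seen. Of 30 cholesterol and SREBP genes, 5 were higher and 1 lower at an unadjusted p under 0.05. For this list and the hypoxia list, the shares over all tested genes were 5.74% higher and 2.72% lower. Among the cholesterol genes the direction was not common to all animals. Their median was 0.11 over 18 libraries and 0.01 over 17, and by animal it ran from −0.09 to 0.29. The member lower was ABCA1, the exporter of cellular cholesterol, with 41.3 to 93.3 CPM in Y-A, 25.2 to 56.1 CPM in Y-E and a log2 fold change of −0.74 (adjusted p = 0.124). DHCR7, the last enzyme of cholesterol synthesis, had 0.32 (adjusted p = 0.395) and was higher in 6 of 6 animals. Of 23 hypoxia genes, 5 were higher and 0 lower (median 0.11), with 0.50 for EGLN3 and 0.47 for EGLN2, both prolyl hydroxylases of hypoxia-inducible factors (adjusted p = 0.134 and 0.254).

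Housekeeping machinery had no call. The median was −0.19 for 28 cytosolic ribosomal proteins and below 0 in every animal, between −0.34 and −0.01. Of the 28, 6 were lower in all 6 animals, against 3.69% of all tested genes, and 1 was lower at an unadjusted p under 0.05. RPLP0, a protein of the ribosomal stalk, had −0.29 (adjusted p = 0.657). The medians were −0.06 for 60 mitochondrial ribosomal proteins, −0.06 for 40 oxidative phosphorylation subunits, −0.08 for 39 proteasome subunits, −0.05 for 51 spliceosome genes, −0.07 (−0.14 over 17 libraries) for 30 cell cycle genes and −0.14 for 22 heat shock chaperones. The heat shock median was below 0 in every animal, between −0.21 and −0.07.

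All 291 KEGG pathways with at least 15 tested genes were ranked by their median log2 fold change. The lowest were Ribosome (−0.17, 242 genes), Porphyrin and chlorophyll metabolism (−0.12, 25 genes), Glycosphingolipid biosynthesis of the ganglio series (−0.11, 15 genes), DNA replication (−0.10, 44 genes) and Mineral absorption (−0.10, 31 genes). The highest were Protein digestion and absorption (0.18, 62 genes), Olfactory transduction (0.16, 45 genes), Starch and sucrose metabolism (0.15, 24 genes), Notch signaling pathway (0.14, 57 genes) and Osteoclast differentiation (0.13, 122 genes). The ganglio series turned to 0.09 over 17 libraries, and the other 9 kept their sign. In Ribosome 24 of 242 genes were lower and 0 higher in all 6 animals, against 3.69% and 3.39% of all tested genes. At an unadjusted p under 0.05, however, 3 genes (1.24%) were higher and 4 (1.65%) lower. Both shares were below those of all tested genes, 5.74% and 2.72%. The Ribosome median was 0.0088 in animal 6. Without the red cell genes the median of Porphyrin and chlorophyll metabolism was −0.03. In Osteoclast differentiation, a pathway shared with myeloid cells, 22 genes were higher and 2 lower at an unadjusted p under 0.05. Of 159 genes of Chemokine signaling pathway, 30 were higher and 1 lower, and of 102 genes of Fc gamma R-mediated phagocytosis, 21 were higher and 0 lower. Both pathways were chosen after their counts were seen. For all 3 pathways the shares over all tested genes are the same 5.74% higher and 2.72% lower.

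The pathways that the study takes up had medians between −0.04 and 0.11 in estrus against anestrus. The study reports ECM-receptor interaction for this comparison, and the HIF-1, VEGF, PPAR and oocyte maturation pathways for all its comparisons. It reports the IL-17, relaxin, oxytocin, p53, NF-kappa B and arginine pathways for comparisons with pregnancy. The values given here for those are no check of its statements. Of 67 tested genes of ECM-receptor interaction, 5 were higher and 2 lower at an unadjusted p under 0.05 (median 0.02). PPAR signaling had 5 higher and 4 lower of 56 (median 0.06). HIF-1 signaling had 13 higher and 0 lower of 89 (median 0.07), VEGF signaling 12 and 2 of 57 (0.09), Progesterone-mediated oocyte maturation 10 and 1 of 82 (−0.04), and IL-17 signaling 8 and 1 of 74 (0.11). Relaxin signaling had 16 and 1 of 107 (0.06), Oxytocin signaling 10 and 3 of 113 (0.07), and p53 signaling 5 and 3 of 83 (−0.02). NF-kappa B signaling had 7 and 4 of 143 (0.05), and Arginine biosynthesis, which holds ARG1, 1 and 1 of 17 (0.00). Among further pathways, Steroid biosynthesis had 2 and 0 of 19 (0.06, and 0.01 over 17 libraries), Glycolysis / Gluconeogenesis 3 and 0 of 60 (0.06) and Ferroptosis 0 and 2 of 50 (−0.04). Over all tested genes 5.74% were higher and 2.72% lower. The highest shares of higher genes, picked after the counts were seen, were 21.1% in VEGF, 15.0% in Relaxin and 14.6% in HIF-1 signaling. The shares of p53 signaling (5 of 83) and NF-kappa B signaling (7 of 143) lay near that of all tested genes. Autophagy had 14 and 13 of 141 (0.01) and Mitophagy 5 and 6 of 77 (−0.01).

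The genes called in the other animals were then looked up in animal 6. Without its 3 libraries, 21 genes were called, 4 up-regulated and 17 down-regulated, and 20 of them (95.2%) had the same direction in animal 6, against 7591 of 14495 tested genes (52.4%). The exception was MGAM. Of the 21, 9 were red cell or hemoglobin genes, which move together, and all 9 had the same direction in animal 6. Animal 6 was itself singled out for the hemoglobin level of its Y-E library. The 21 genes are therefore not independent, and the count is a description. The size differed between genes. FCGRT, PDK4 and KLF11 changed in animal 6 by 100%, 98.3% and 143% of the fold change fitted to the other animals. The 9 red cell genes had a median of −3.08 in the others and −1.22 in animal 6, while CA4, GLP1R and MYORG reached 50.6%, 15.9% and 9.54%. With the log2 hemoglobin share of each library as a further term in the model, which itself was lower in Y-E in every animal, no gene was called (edgeR) and 414 genes had an unadjusted p under 0.05. The estimates of PDK4, KLF11 and FCGRT were then −1.79, −1.30 and −0.99 with larger errors (SE 0.36, 0.38 and 0.29; adjusted p = 0.988 for each), and those of ARG1, MYORG and CA4 were −0.75, 0.50 and 0.11.

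**Figure D5:**
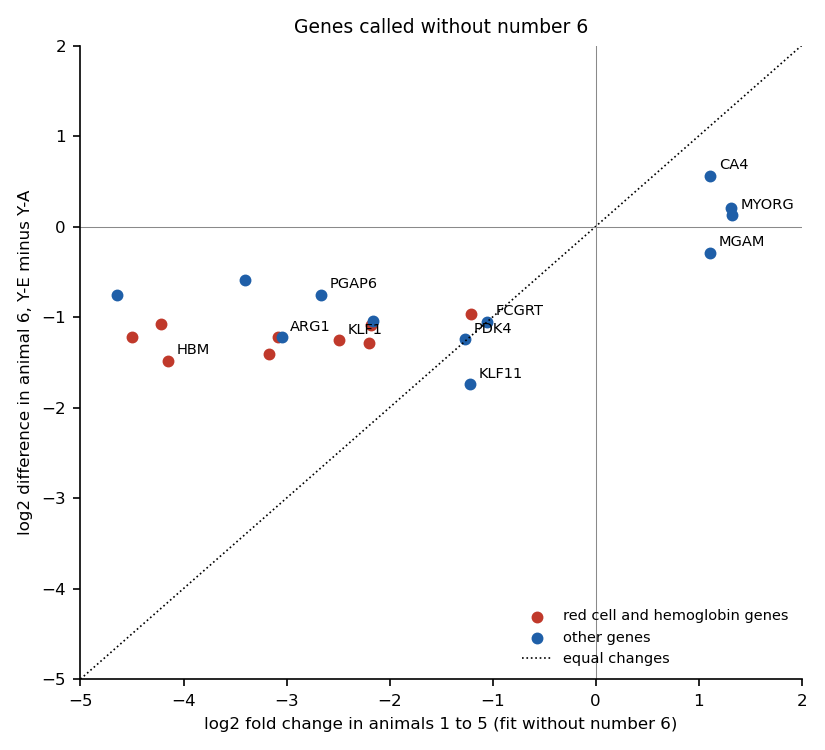
Log2 difference in animal 6 (vertical) against the log2 fold change fitted to animals 1 to 5 (horizontal) for the 21 genes called without number 6, with red cell and hemoglobin genes in red, other genes in blue and a dotted line for equal changes. FCGRT and PDK4 sit on the line and KLF11 below it, the red cell genes lie above it with smaller drops in animal 6, and the 4 up-regulated genes lie under it, MGAM below 0.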

How the data were processed

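RNA of whole blood was sequenced in 18 libraries from 6 cows at 3 stages. According to the methods and the submitters' processing notes, the authors trimmed reads with cutadapt 1.9, aligned them with HISAT2 2.2.1 to the *Bos grunniens* genome, and assembled and quantified transcripts with StringTie 2.1.6 and ballgown. The authors deposited whole-number counts, not normalized, and FPKM values (fragments scaled to transcript length and mapped reads) of 20607 genes in 1 table; how the counts were made is not given in the sources used here. Counts were the main unit, and the deposited FPKM served as an alternative on the log2(FPKM + 1) scale.

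The two-sided quasi-likelihood test of edgeR 4.0.16 (R 4.3.3) was run on TMM-scaled counts after filterByExpr, with stage and animal number as terms over 18 or 17 libraries. Differences by animal are Y-E minus Y-A of log2 CPM with a prior count of 2. Alternatives used limma 3.58.1 and DESeq2 1.42.0. The fit was tested on simulated data. The numbers pair the libraries because the same cows were sampled. Same-numbered libraries of Y-A and Y-E deviated together from their group means, with correlations of 0.110 to 0.515, against −0.209 to 0.100 for other pairs.

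The comparison, the 44 gene lists and the tests were chosen with earlier results of these data known. Named were all genes called over 18 libraries, then those called over 17 up to 15 in each direction, genes that the study names, and list members past the adjusted p or else of the highest mean level, up to 3 a list; of the last, only some are printed. ALX1 and TENT5B, which the study names, were not tested, and the list for a porphyrin pathway matched no name in the table. Some results are not reported here. Nothing says that libraries of a group differ in extraction or run. Python 3.11.15, pandas 2.3.3 and matplotlib 3.10.9 made the summaries and figures.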

Additional observations from a re-analysis of the deposited data

Results flagged for a closer look

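Samples far from the rest of their group were searched for in 44 groups of 6 libraries, and 15 were found. The groups included red cell genes that move together and genes named for their results. The count can therefore not be set against a chance rate. Of the 15, 8 were values of Y-E replicate 6. That library was already singled out for its hemoglobin level, which its red cell values partly restate. Its total of 46404156 counts and its hemoglobin share of 8.36% were the highest of Y-E, as were its levels of ARG1 (208 CPM), HBM (27.8 CPM), KLF1 (22.5 CPM), ALAS2 (4261 CPM) and PGAP6 (249 CPM), while its level of MGAM (51.0 CPM) was the lowest. In Y-A, replicate 6 was far above the others in ARG1 (486 CPM), KLF1 (53.7 CPM), ALAS2 (9946 CPM) and ENSBGRG00000008216 (46.1 CPM). Replicate 1 was high in MMP9 (108 CPM), replicate 4 in KLF11 (74.6 CPM) and replicate 5 in MGAM (97.0 CPM).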

How the results depend on the processing

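The count of DEGs depended on the fit. Against 11 genes over 18 libraries and 34 over 17, the fit with no replicate block, which ignores the pairing of libraries by animal, called 2 and 18. With red cell genes left out the counts were 5 and 15, with DESeq2 48 and 80, with limma and voom sample weights 31 and 56, with the hemoglobin share as a term 0 and 0, and with all libraries of number 6 left out 21 and 21. Over 18 libraries, library size only gave 20 and the Y-A and Y-E libraries alone 22. Up-regulated genes were 20.6% of the calls over 17 libraries, 12.5% in Y-A and Y-E alone, 13.8% on FPKM, 34.1% with library size only, 40% with DESeq2, 41.1% with voom sample weights, and from 4.35% (without Y-A replicate 3) to 61.5% (without Y-A replicate 1) with 1 library left out. On the adjusted p alone, higher and lower genes over 17 libraries were 26 and 28, against 50 and 30 with library size only, 71 and 36 with voom weights and 216 and 56 with DESeq2. Over 18 libraries they were 4 and 10, against 15 and 18, 25 and 23, and 115 and 43. Leaving out 1 library gave 2 (Y-E replicate 3) to 34 genes (Y-E replicate 6) over 18 libraries, and 11 (Y-E replicate 3) to 44 genes (Y-E replicate 1) over 17. KLF11 was called in 22 of 24 alternatives, PDK4 in 22, FCGRT in 21 and ARG1 in 20. With the hemoglobin term, the log2 fold changes of MGAM (−0.13), ENSBGRG00000014632 (0.0222), HRCT1 (0.12), KEL (0.31), FKBP5 (0.32), SOCS3 (−0.0595) and RGS1 (1.48) changed sign. ENSBGRG00000014632 is a hemoglobin complex gene counted in that share, so a value near 0 follows from the term itself. KEL is a member of the red cell list. The share was lower in Y-E than in Y-A in every animal, so the term also takes up part of the stage difference. RGS1 also changed sign with no replicate block (0.0138), in Y-A and Y-E alone (0.0155), with voom weights (0.30) and on FPKM (0.0164), and FOS with no replicate block (−0.0228). Leaving out 1 library moved FOS between −0.24 and 0.23, RGS1 between −0.33 and 0.13 and CD3D from −0.0531 upward. The causes were not tested. Depth limits rare genes such as CD36, which had 0 counts in 4 Y-E libraries.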
